A study of Mus musculus with 15 samples.

Results

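The bone morphogenetic protein (BMP) pathway was followed here through 8 genes, *Bmp4*, *Bmpr1a*, *Bambi*, *Smad6*, *Id1*, *Id2*, *Id3* and *Msx2*, taken by name from the 48709 genes of the deposited count tables and read in all 15 RNA-seq libraries of both OCT4 depletion time courses. The rule is this list of names and takes in no measured value, but the names were chosen with earlier results of these data known. Shares of members set beside shares of all genes are therefore a description. In this pathway a secreted ligand such as BMP4 binds a pair of type I and type II serine/threonine kinase receptors, the type I receptor phosphorylates SMAD1, SMAD5 or SMAD9, and these enter the nucleus with SMAD4 to switch on targets such as the *Id* genes. ID proteins lack a DNA-binding basic region and sequester E proteins, and in mouse embryonic stem cells (ESCs) BMP4 acting through the *Id* genes is known to hold back neural differentiation beside LIF. The same pathway is known to promote trophoblast and mesoderm fates in other settings.

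Total RNA was sequenced after ribosomal RNA depletion from mouse ESCs that lost OCT4, the product of *Pou5f1*, by one of a pair of routes. The CreER ESCs (Oct4 Fl/-, CAG CreER, mixed 129SV C57BL/6) carry 1 floxed *Pou5f1* allele, a disrupted second allele and a tamoxifen-inducible Cre under the ubiquitous CAG promoter, and were sampled untreated and after 12, 18, 24 or 36 h in 500 nM 4-hydroxytamoxifen (4-OHT), with 2 replicates at each time. The O4AID ESCs (ZHBT, Oct4-/-, TetOFF Oct4, CAG Oct4AID, CAG Tir1, 129SV) have no intact endogenous *Pou5f1*, keep a doxycycline-silenced *Oct4* transgene and depend on a CAG-driven *Oct4* fused to an auxin-inducible degron, with the plant F-box protein TIR1 from a further CAG transgene. They were sampled untreated and after 1.5, 6, 10 or 24 h in 500 µM indole-3-acetic acid (IAA), with 1 library at each time. By the labels all libraries came from serum-free N2B27 medium with the MEK inhibitor PD03, the GSK3 inhibitor Chiron and LIF, and the ZHBT cells also had doxycycline; the study's protein time course of the floxed line combined 4-OHT with a change to serum and LIF, and the sources used here do not say whether such a change was made for the RNA libraries. Line, strain, transgenes, agent and route of depletion all differ between the systems and cannot be told apart. Nothing states that replicates came from separate cultures, so that p-values measure only the spread between these libraries.

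Depth was 21.7 to 30.8 M gene-assigned reads in the CreER libraries and 40.5 to 48.7 M in the O4AID libraries. Levels are given as CPM, counts per M reads scaled by trimmed mean of M-values (TMM) factors over the 15 libraries, or as RPKM, the same per kilobase of exon, where genes are compared with each other. *Pou5f1* itself fell in the CreER libraries, from 321 and 317 CPM at 0 h to 112 and 123 CPM at 36 h (log2 fold change -1.43 ± 0.05 SE, edgeR adjusted p = 4.15e-19), and stood at 766 CPM untreated and 633 CPM after 24 h of IAA in O4AID, where the protein and not the transcript is the target, so that it checks no degradation there. The 8 naive ESC markers were all present in every library, and their summed level moved from 2823 to 2934 CPM at 0 h to 2322 to 2434 CPM at 36 h in CreER, and from 6388 to 1625 CPM over 24 h in O4AID. The summed level of 8 trophectoderm markers went from 103 to 111 CPM at 0 h to 258 to 275 CPM at 36 h in CreER. In O4AID it was 104, 109, 137, 134 and 107 CPM at 0, 1.5, 6, 10 and 24 h. Such a sum follows its most abundant genes and can hide a rise of the others. The study itself reported that trophoblast-associated genes went up in O4AID cells after IAA. Of the remaining marker lists, 6 primitive endoderm genes went from 5.94 to 6.56 CPM to 10.4 CPM in CreER and from 9.70 to 33.7 CPM in O4AID, 4 neural genes stayed between 51.1 and 82.8 CPM, 5 mesoderm genes between 3.53 and 5.63 CPM, and 6 fibroblast genes between 2.55 and 10.1 CPM with *Col3a1*, *Postn* or *Twist2* at 0 reads in each O4AID library. In bulk RNA, fewer cells of a type and less RNA per cell cannot be told apart.

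Before any treatment the lines already held different amounts of RNA of some members. *Bmp4*, *Id1*, *Id2* and *Id3* were each at least 10-fold higher in untreated CreER than in untreated O4AID cells, whereas the type I receptor *Bmpr1a* was close to equal. *Id1* measured 66.7 and 67.1 CPM in the CreER replicates and 1.14 CPM (50 reads) in O4AID, a 58.7-fold difference (95% counting interval 44.5 to 79.3). *Id3* measured 35.9 and 35.3 CPM against 0.638 CPM (28 reads), or 55.8-fold (38.5 to 84.2). *Bmp4*, the ligand of the set, measured 29.4 and 28.4 CPM against 0.547 CPM (24 reads), or 52.9-fold (35.4 to 82.7). *Id2* differed less, at 21.2 and 17.9 CPM against 1.05 CPM (46 reads), or 18.7-fold (13.8 to 25.5).

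The other members were within 3-fold of each other in the untreated lines. *Msx2* was 2.35-fold (1.80 to 3.11), *Smad6* 1.95-fold (1.69 to 2.23) and *Bambi* 1.38-fold (1.20 to 1.59) higher in CreER. *Bmpr1a* was lower in CreER, with a ratio of 0.834 (0.806 to 0.862). Thus 4 of 8 members were 10-fold or more higher in CreER, where 9.89% of the 18602 genes with enough reads were, and none was 10-fold higher in O4AID, where 4.47% of genes were; the 10-fold limit was chosen after these values were seen. Over the whole time courses the 10 CreER libraries lay above the 5 O4AID libraries for 6 of 8 members (30.5% of genes), below them for *Bmpr1a* (33.6% of genes), and overlapped them for *Msx2*. The wider BMP list described below had 39 genes with enough reads here. Of these, 2 were 10-fold or more higher in CreER and 1 in O4AID. Over all times the CreER libraries lay above for 7 of them, below for 16 and overlapped for 16. With 1 untreated O4AID library these ratios carry counting error only, and no test of the lines was made. The naive marker sum also differed, at 2823 and 2934 CPM in untreated CreER and 6388 CPM in untreated O4AID, and its part in the line differences was not tested.

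**Figure D1:**
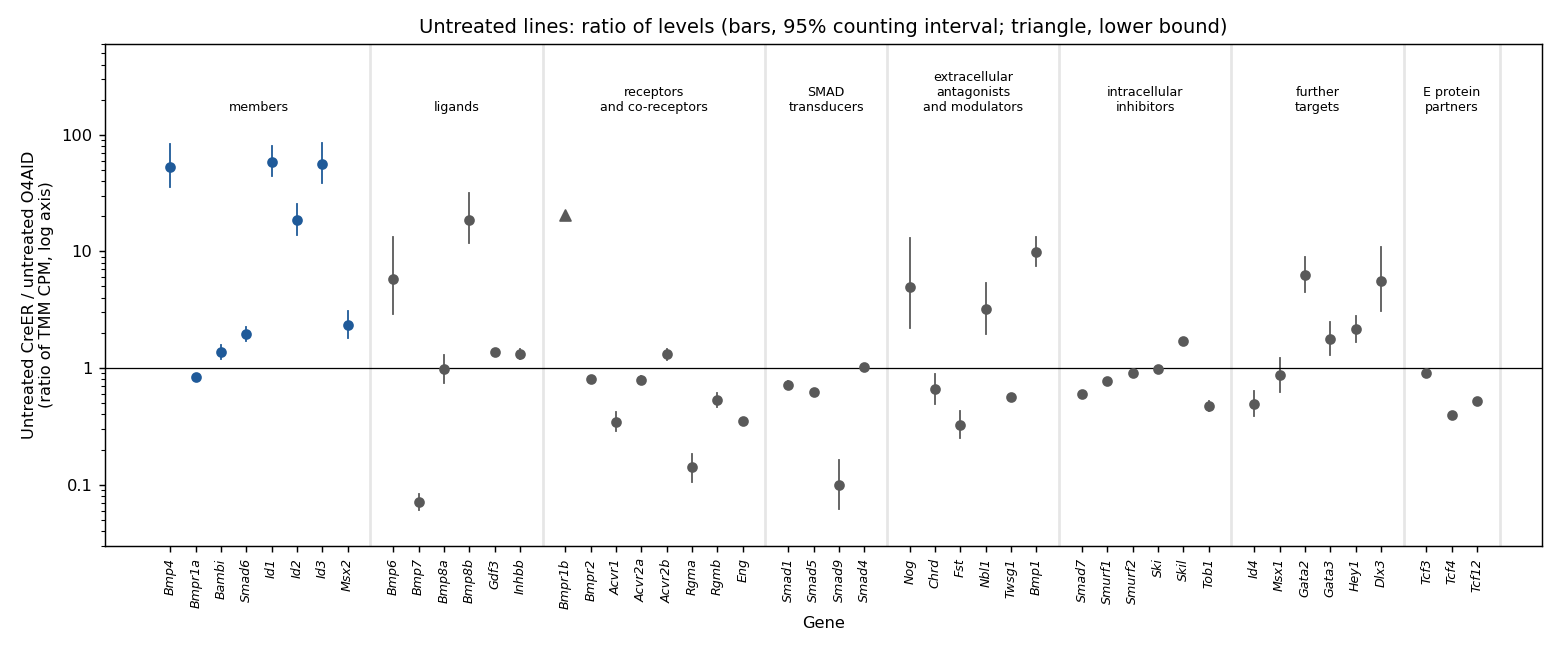
Ratio of the untreated CreER mean (n = 2 libraries) to the untreated O4AID library for each of the 8 genes (blue) and for genes of a wider BMP list by role (grey), in TMM CPM on a log axis; bars are 95% counting intervals and the triangle is a lower bound for a gene with 0 reads in O4AID. *Id1*, *Id3*, *Bmp4* and *Id2* stand at 18.7-fold or above, while *Bmpr1a* sits at 0.834.

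Per length, the order of the genes also differed between the lines. In untreated CreER cells *Id1* was the highest at 57.7 ± 0.197 RPKM (SD, n = 2), followed by *Bmpr1a* at 20.4 ± 0.150, *Id3* at 19.9 ± 0.220, *Id2* at 15.4 ± 1.82 and *Bmp4* at 13.0 ± 0.310 RPKM, and then by *Smad6* at 4.07 ± 0.466, *Bambi* at 2.02 ± 0.113 and *Msx2* at 1.21 ± 0.0421 RPKM. No neighbours in that order had overlapping replicates. In untreated O4AID cells *Bmpr1a* led at 24.4 RPKM, *Smad6* followed at 2.08 and *Bambi* at 1.46 RPKM, and the remaining members were under 1 RPKM, from *Id1* at 0.982 through *Id2* at 0.825, *Msx2* at 0.514 and *Id3* at 0.356 to *Bmp4* at 0.246 RPKM. From *Id1* downward, each of these neighbours had overlapping 95% counting intervals.

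Sequence upstream of a RefSeq start site (GRCm38.p6) was available for 6 of 8 members, and *Id1* and *Bambi* had none in the table used. For *Bmpr1a*, *Id3* and *Msx2* that start lies inside the gene span of the count annotation, so their windows are not upstream of the whole gene. The windows of *Id3* and *Msx2* were wholly annotated exon. The sequences of *Bmp4* and *Id2*, which were far lower in O4AID, of *Smad6*, which rose with *Id2* in CreER, and of *Bmpr1a*, which was near equal in both lines, are shown from within the 250 bases before the start, leaving out annotated exons. They lie on the minus strand at chr14:46390670-46390919 (*Bmp4*), chr12:25096254-25096342 (*Id2*), chr9:64022060-64022309 (*Smad6*) and chr14:34502688-34502796 (*Bmpr1a*), and are written 5′ to 3′ with capitals marking the GC-rich SMAD motif GGCGCC.
Bmp4: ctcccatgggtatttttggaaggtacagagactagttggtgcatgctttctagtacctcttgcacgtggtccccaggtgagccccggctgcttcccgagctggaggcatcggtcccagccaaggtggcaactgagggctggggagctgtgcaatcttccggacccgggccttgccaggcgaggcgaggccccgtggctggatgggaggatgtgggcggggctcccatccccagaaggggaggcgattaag
Id2: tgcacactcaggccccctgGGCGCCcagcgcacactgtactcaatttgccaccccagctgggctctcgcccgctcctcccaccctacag
Smad6: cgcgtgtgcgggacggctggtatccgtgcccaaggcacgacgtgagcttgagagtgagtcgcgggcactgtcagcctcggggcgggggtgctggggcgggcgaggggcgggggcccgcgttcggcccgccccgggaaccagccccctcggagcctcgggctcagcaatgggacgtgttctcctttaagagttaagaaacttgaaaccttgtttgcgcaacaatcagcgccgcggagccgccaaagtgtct
Bmpr1a: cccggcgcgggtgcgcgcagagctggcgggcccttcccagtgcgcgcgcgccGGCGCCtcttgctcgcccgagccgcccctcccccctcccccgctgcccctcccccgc
In the full 250 bases GGCGCC was found in 2 of 6 member promoters, *Id2* and *Bmpr1a*, and in 9.59% of 32851 mouse promoters. The *Bmpr1a* match lies inside the annotated gene span. The palindromic SMAD-binding element GTCTAGAC was in 0 of 6 and in 0.167% of all promoters, and the octamer ATGCAAAT, the sequence bound by OCT4 and its relatives, searched on both strands, was in 0 of 6 and in 1.60%. None of these motifs overlaps another in the stretches printed. GC content of the 6 promoters was 61.6 to 78.8%, beside a median of 52.4% over all promoters. A letter match is a description of the window and not a measured site.

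All 8 genes passed the filter on low counts in CreER. The inhibitor *Smad6*, the target *Msx2* and the target *Id2* rose with time after 4-OHT, *Id1* fell late, and the ligand, the receptor and *Id3* moved little. At 12 h 0 of 8 members passed the edgeR test (quasi-likelihood test, Benjamini-Hochberg adjusted p under 0.05 over 18969 genes; 0.395% of genes passed), with 1 of 8 at an unadjusted p under 0.05 and 0 by DESeq2. At 18 h 3 of 8 passed, all higher (8.52% of genes; 4.73% higher, 3.79% lower), and at 24 h 3 of 8, again all higher (21.6%; 11.0% higher, 10.6% lower). At 36 h 6 of 8 passed, 5 higher and 1 lower, where 36.6% of genes passed, 19.4% higher and 17.2% lower. The members' median log2 fold change was -0.02, 0.15, 0.11 and 0.23 at 12, 18, 24 and 36 h, and that of all genes lay between 0.00 and 0.01 at each time. Each contrast uses the same pair of 0 h libraries.

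**Figure D2:**
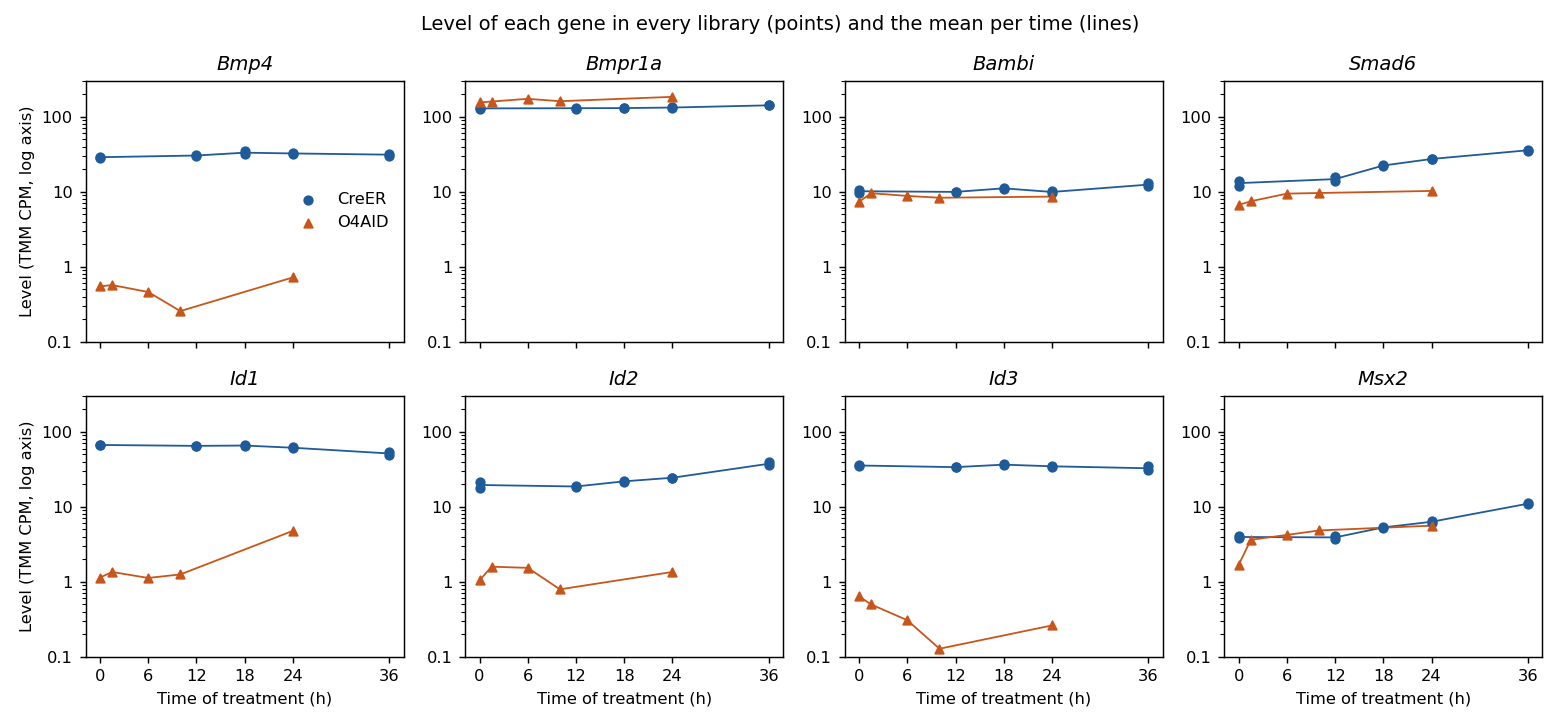
Level of each of the 8 genes in TMM CPM (log axis) against hours of 4-OHT (CreER, blue circles, 2 libraries per time) or IAA (O4AID, orange triangles, 1 library per time); points are libraries and lines join the means. *Bmp4* and the *Id* genes run far apart in the lines at all times, *Smad6*, *Id2* and *Msx2* climb in CreER, and *Id1* in O4AID stands apart at 24 h.

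*Bmp4* (ENSMUSG00000021835, chr14:46383520-46390669, GRCm38/mm10, minus strand) encodes the secreted ligand. Its CreER levels were 29.4 and 28.4 CPM at 0 h, 30.2 and 30.7 at 12 h, 34.5 and 31.9 at 18 h, 31.5 and 33.4 at 24 h, and 30.5 and 32.1 CPM at 36 h. All 8 treated libraries lay above both untreated ones, by a small margin. The log2 fold change was 0.21 ± 0.06 at 18 h (edgeR adjusted p = 0.0430) and 0.17 ± 0.06 at 24 h (edgeR adjusted p = 0.0527), and 0.12 ± 0.07 at 36 h (edgeR adjusted p = 0.150). The 18 h call was lost in edgeR with RLE factors (adjusted p = 0.0505), under total-count scaling (0.0714) and with only the 4 libraries compared (0.0869), and by DESeq2 (adjusted p = 0.163). It was also lost without 0 h replicate 2 (log2 fold change 0.18), 18 h replicate 1 (0.15) or 18 h replicate 2 (0.27). An annotated transcript on the opposite strand, *Gm15217*, shares 89 exon bases with *Bmp4*, or 4.00% of its exons, and had at most 0.600 CPM; the strand setting of the counting is not given in the sources used here.

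*Bmpr1a* (ENSMUSG00000021796, chr14:34410734-34503341, minus strand) encodes a type I receptor of BMP2 and BMP4. Its level was 130 and 129 CPM at 0 h, between 128 and 134 CPM at 12, 18 and 24 h, and 142 and 142 CPM at 36 h. The 36 h libraries were above all others of the course, at a log2 fold change of 0.15 ± 0.04 (edgeR adjusted p = 0.00600), which under total-count scaling was 0.06 (adjusted p = 0.305). With only the 4 libraries compared the edgeR adjusted p was 0.0504. Against 24 h the change at 36 h was 0.10 ± 0.04 (edgeR adjusted p = 0.0980), and under total-count scaling it was close to 0. *Gm17110*, on the opposite strand, shares 290 exon bases (4.57%) with *Bmpr1a* and had at most 0.297 CPM.

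*Bambi* (ENSMUSG00000024232, chr18:3507957-3516404, plus strand) encodes a transmembrane pseudoreceptor that lacks a kinase domain and dampens signalling. It stood at 9.76 and 10.6 CPM at 0 h, between 9.64 and 11.2 CPM at 12, 18 and 24 h, and at 13.1 and 11.8 CPM at 36 h. The 36 h libraries were again the highest, with a log2 fold change of 0.31 ± 0.09 against 0 h (edgeR adjusted p = 0.0108) and 0.34 ± 0.09 against 24 h (edgeR adjusted p = 0.0138). The first call was lost in edgeR under total-count scaling (adjusted p = 0.0647) and by DESeq2 (adjusted p = 0.0979). It was also lost without 0 h replicate 1 (log2 fold change 0.26) or 36 h replicate 1 (0.23). The second call was lost in edgeR under total-count scaling (adjusted p = 0.0878) and by DESeq2 (adjusted p = 0.100). It was also lost without 24 h replicate 1 (log2 fold change 0.30) or 36 h replicate 1 (0.26).

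*Smad6* (ENSMUSG00000036867, chr9:63953076-64022059, minus strand) encodes an inhibitory SMAD that is itself induced by BMP signalling and feeds back on it. The replicates measured 14.1 and 12.0 CPM at 0 h, 15.8 and 13.7 at 12 h, 22.4 and 22.4 at 18 h, 27.1 and 27.7 at 24 h, and 35.1 and 36.5 CPM at 36 h. From 18 h each time lay wholly above the one before it. The log2 fold change rose from 0.19 ± 0.09 at 12 h (edgeR adjusted p = 0.541) to 0.79 ± 0.08 at 18 h (edgeR adjusted p = 2.40e-07), 1.08 ± 0.08 at 24 h and 1.47 ± 0.08 at 36 h (edgeR adjusted p = 2.92e-14). The step from 24 to 36 h was itself called (0.39 ± 0.07, edgeR adjusted p = 0.000311). These calls from 18 h on held in each alternative run, with adjusted p of at most 6.87e-05 at 18 h and at most 0.0122 from 24 to 36 h.

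The *Id* genes did not move as a block. *Id1* (ENSMUSG00000042745, chr2:152736251-152737410, plus strand), a short gene that is a common readout of BMP signalling, had 66.7 and 67.1 CPM at 0 h, 65.3 and 64.8 at 12 h, 64.5 and 66.9 at 18 h, 60.8 and 62.1 at 24 h, and 48.9 and 54.2 CPM at 36 h. Both 36 h libraries were below all others. Its log2 fold change was -0.12 ± 0.05 at 24 h (edgeR adjusted p = 0.118) and -0.37 ± 0.05 at 36 h (edgeR adjusted p = 4.05e-06). The fall from 24 to 36 h was -0.25 ± 0.05 (edgeR adjusted p = 0.00177), and without 36 h replicate 1 it was -0.17 (adjusted p = 0.0723).

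*Id2* (ENSMUSG00000020644, chr12:25093801-25096092, minus strand) went the other way. It measured 21.2 and 17.9 CPM at 0 h, 18.8 and 18.6 at 12 h, 22.1 and 21.7 at 18 h, 24.3 and 24.6 at 24 h, and 35.7 and 39.5 CPM at 36 h. The untreated replicates were the furthest apart of its early pairs, and the 36 h pair lay well above the rest. The log2 fold change was 0.33 ± 0.08 at 24 h (edgeR adjusted p = 0.00246), lost without 0 h replicate 2 (adjusted p = 0.102), and 0.96 ± 0.08 at 36 h (edgeR adjusted p = 6.04e-11). Most of the rise came after 24 h, at 0.62 ± 0.07 from 24 to 36 h (edgeR adjusted p = 6.24e-07). *Id3* (ENSMUSG00000007872, chr4:136143497-136145755, plus strand) held between 30.8 and 37.3 CPM in the 10 libraries, with 35.9 and 35.3 CPM at 0 h and 30.8 and 34.5 CPM at 36 h. Its log2 fold change at 36 h was -0.11 ± 0.06 (edgeR adjusted p = 0.170, 95% interval -0.24 to 0.01); under total-count scaling it was -0.20 (adjusted p = 0.0151), and without 36 h replicate 2 it was -0.21 (adjusted p = 0.0335).

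*Msx2* (ENSMUSG00000021469, chr13:53466884-53473074, minus strand), a homeobox transcription factor gene downstream of BMP, rose from low levels. It measured 3.87 and 4.06 CPM at 0 h, 4.13 and 3.70 at 12 h, 5.21 and 5.43 at 18 h, 6.53 and 6.11 at 24 h, and 10.9 and 11.1 CPM at 36 h. The pairs from 18 h on did not overlap each other or the earlier ones. The log2 fold change was 0.43 ± 0.13 at 18 h (edgeR adjusted p = 0.0393), 0.68 ± 0.13 at 24 h (edgeR adjusted p = 0.000228) and 1.48 ± 0.12 at 36 h (edgeR adjusted p = 7.60e-11). The 18 h call was lost in edgeR under total-count scaling (adjusted p = 0.0526), with no filter (0.0520) and with only the 4 libraries compared (0.0776). It was also lost by DESeq2 (adjusted p = 0.169) and in each fit leaving out 1 library, at log2 fold changes of 0.40 to 0.46. The calls at 24 and 36 h held in each alternative. From 24 to 36 h the gene rose by a further 0.80 ± 0.11 (edgeR adjusted p = 5.68e-06). The trophectoderm marker sum was higher and the naive marker sum lower at 36 h than at 0 h, with the values given above, and their part in the changes of *Smad6*, *Id2*, *Msx2* and *Id1* was not tested. In the late step from 24 to 36 h, 5 of 8 members passed, 4 higher and 1 lower (14.7% of genes; 8.13% higher, 6.55% lower), and without 36 h replicate 1, 3 of 8 did.

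**Figure D3:**
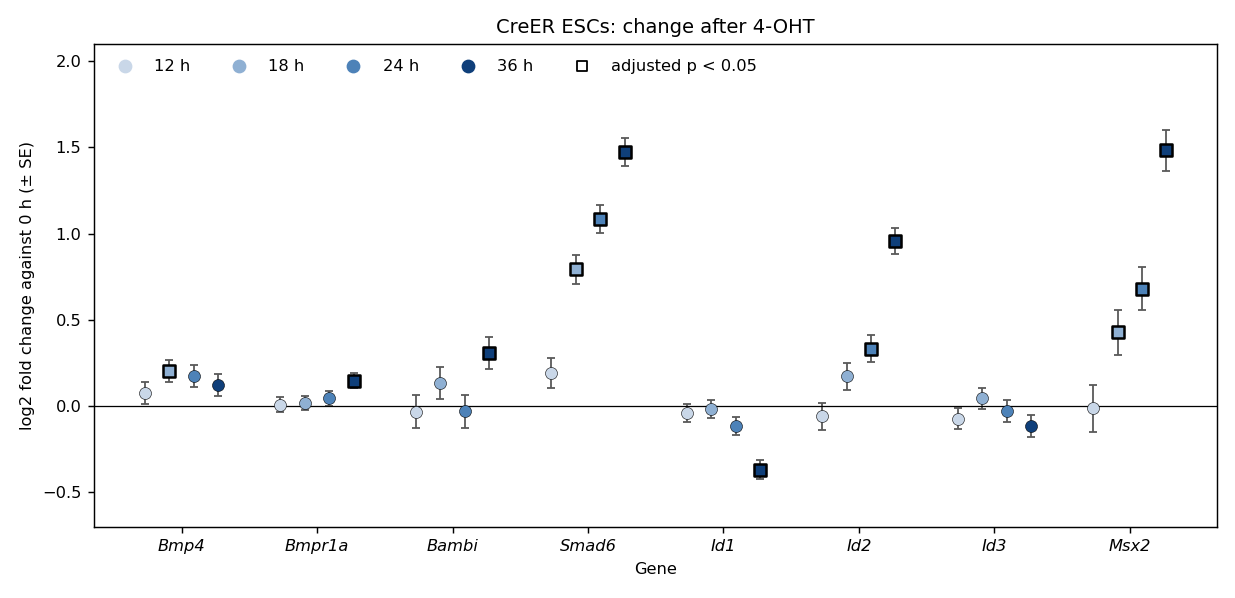
Fitted log2 fold change against 0 h (± SE) of each gene at each treated time in CreER cells, light to dark, with squares for an edgeR adjusted p under 0.05. *Smad6*, *Id2* and *Msx2* reach 1.47, 0.96 and 1.48 at 36 h, and *Id1* is the gene called lower, at -0.37.

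In O4AID cells *Msx2* was higher from the first treated library and *Id1* was higher at 24 h, while *Bmp4*, *Id2* and *Id3* stayed at no more than 67 reads. Changes here are log2 ratios of (CPM + 1) to the 0 h library with 95% counting intervals, a scale that understates the change of low genes, so the plain CPM ratio is given too for *Msx2* and for the late changes of *Id1* and *Id3*. Each time is 1 library, so that there is no replicate check and no test. Past a 2-fold limit were 0 of 8 members at 1.5 h (0.0858% of genes; 0.0229% higher, 0.0629% lower) and 0 at 6 h (0.977%; 0.408% higher, 0.569% lower). At 10 h 1 member was past it (2.13%; 1.08% higher, 1.05% lower) and at 24 h 2 were (6.78%; 3.82% higher, 2.96% lower), each of them higher. The median change of the members was 0.14, 0.19, 0.07 and 0.22 at these times, and that of all genes lay between -0.03 and -0.01. Scaling by total counts in place of TMM raises the plain log2 CPM ratio of each gene by 0.13 at 24 h and by at most 0.10 before. On the CPM + 1 scale low genes move by less. The 0 h library is shared by all 4 comparisons.

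*Msx2* measured 1.69, 3.63, 4.22, 4.84 and 5.61 CPM at 0, 1.5, 6, 10 and 24 h (74, 153, 165, 189 and 257 reads). The untreated library was the lowest and each later one was higher than the last. The log2 change was 0.79 (0.51 to 1.06) at 1.5 h, 0.96 (0.68 to 1.23) at 6 h, 1.12 (0.85 to 1.38) at 10 h and 1.30 (1.04 to 1.55) at 24 h. The plain CPM ratios were 2.16 (1.62 to 2.88), 2.51 (1.89 to 3.34), 2.87 (2.18 to 3.81) and 3.33 (2.56 to 4.37), above 2 at each time, so that the 1.5 and 6 h libraries are within the 2-fold limit on the CPM + 1 scale only. With the 1.5 h library as reference the change at 24 h was 0.51, so that the 2-fold call rests on the single untreated library.

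*Id1* showed another time pattern, at 1.14, 1.35, 1.13, 1.26 and 4.78 CPM (50, 57, 44, 49 and 219 reads). The first 4 libraries had overlapping intervals and the 24 h library stood apart. Its log2 change at 24 h was 1.43 (1.16 to 1.69), a CPM ratio of 4.20 (3.08 to 5.83), and those at 1.5, 6 and 10 h were 0.14, -0.01 and 0.08 with intervals that covered 0. Even so the 24 h level was below the 48.9 CPM of the lowest CreER library. *Smad6* measured 6.67, 7.48, 9.44, 9.63 and 10.3 CPM (293 to 470 reads), with log2 changes of 0.14 (-0.06 to 0.34), 0.44 (0.25 to 0.64), 0.47 (0.28 to 0.67) and 0.55 (0.37 to 0.74), within the 2-fold limit throughout.

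*Id3* ran lower in the treated O4AID libraries, at 0.638, 0.499, 0.307, 0.128 and 0.262 CPM (28, 21, 12, 5 and 12 reads). Its log2 change was -0.54 (-0.79 to -0.26) at 10 h, a CPM ratio of 0.201 (0.0606 to 0.527), and -0.38 (-0.64 to -0.10) at 24 h, a ratio of 0.411 (0.190 to 0.834). With a pseudocount of 0.1 CPM it was past 2-fold lower at 10 h (-1.69) and at 24 h (-1.03). *Id2* measured 1.05, 1.59, 1.54, 0.794 and 1.35 CPM (31 to 67 reads) with no steady direction: its change was 0.34 (0.04 to 0.64) at 1.5 h and 0.20 (-0.10 to 0.49) at 24 h. *Bmp4* measured 0.547, 0.570, 0.461, 0.256 and 0.720 CPM (24, 24, 18, 10 and 33 reads), and its change was -0.30 (-0.57 to -0.01) at 10 h and 0.15 (-0.14 to 0.44) at 24 h. For both genes the 24 h interval covered 0, as well as the change seen in CreER at 24 h.

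*Bmpr1a* was well counted, at 155, 160, 174, 161 and 185 CPM (6303 to 8454 reads), and its 24 h change was 0.25 (0.20 to 0.29), or 0.38 under total-count scaling, which also moved its change at 10 h from 0.06 to 0.15. *Bambi* measured 7.38, 9.57, 8.80, 8.33 and 8.62 CPM (324 to 403 reads), with the untreated library lowest and a 24 h change of 0.20 (0.01 to 0.39), which became -0.14 against the 1.5 h library. Over the same hours the naive marker sum went from 6388 to 1625 CPM and the primitive endoderm sum from 9.70 to 33.7 CPM, and their part in these changes was not tested.

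**Figure D4:**
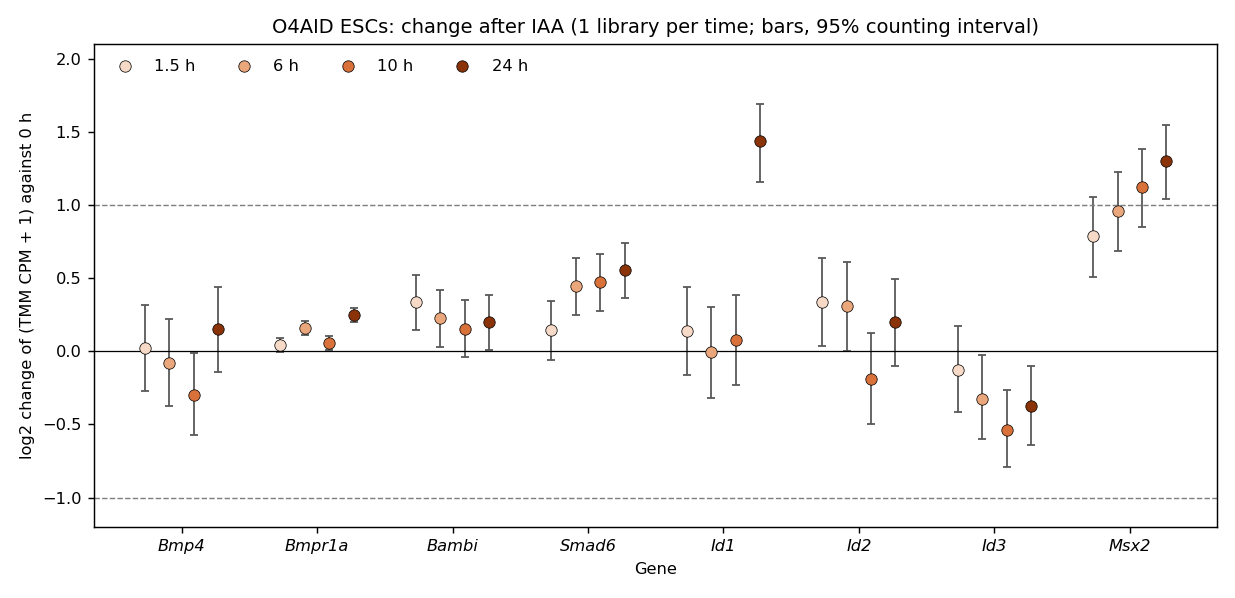
Log2 change of (TMM CPM + 1) against the untreated library for each gene at each treated time in O4AID cells, light to dark; bars are 95% counting intervals and dashed lines mark the 2-fold limit. *Msx2* is up from 1.5 h and reaches 1.30, *Id1* stands at 1.43 at 24 h alone, and *Id3* lies below 0.

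At 24 h, the treated time that the systems share, the members' log2 changes on the CPM + 1 scale were as follows. *Id1* was at 1.43 in O4AID and at -0.14 and -0.10 in the CreER replicates. *Msx2* was at 1.30 in O4AID and at 0.60 and 0.52 in CreER, and *Smad6* at 0.55 against 1.00 and 1.04. *Id3* was at -0.38 in O4AID and at -0.06 and -0.01 in CreER. *Id2* was at 0.20 against 0.30 and 0.32, and *Bmp4* at 0.15 against 0.12 and 0.20. *Bmpr1a* was at 0.25 against 0.03 and 0.05, and *Bambi* at 0.20 against -0.07 and 0.01. *Msx2*, *Smad6*, *Id2*, *Bmp4* and *Bmpr1a* thus had positive values in both systems, and *Id3* had negative ones. *Id1* had values of opposite sign, and *Bambi* was positive in O4AID and of either sign in the CreER replicates. In CreER at 24 h only *Smad6*, *Id2* and *Msx2* passed the edgeR test. The O4AID intervals of *Id2* and *Bmp4* covered 0. The signs are therefore a description, and no difference between systems was tested.

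The pathway around the members was read through a list of 47 further genes, 41 of them with enough reads to be tested in CreER. Besides BMP genes it takes in genes tied to activin, such as *Inhbb* and *Fst*, and the E protein genes *Tcf3*, *Tcf4* and *Tcf12*. At 12 h 0 passed the edgeR test, with 4 at an unadjusted p under 0.05 and 0 by DESeq2. At 18 h 7 passed (5 higher, 2 lower), at 24 h 14 (12 higher, 2 lower) and at 36 h 22 (18 higher, 4 lower), against the shares of all genes given above, and the list's median at 36 h was 0.25. Without 0 h replicate 2 the 18 h count was 3 and the 24 h count 8, without 18 h replicate 2 the first was 4, and without 24 h replicate 1 the second was 8. From 24 to 36 h 11 of the 41 passed (8 higher, 3 lower), or 7 by DESeq2, where 14.7% of all genes passed in edgeR, 8.13% higher and 6.55% lower.

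The counts by role at 36 h stand beside 19.4% of all genes called higher and 17.2% called lower. Among the 8 tested ligands, which take in *Gdf3* and the activin subunit gene *Inhbb*, 3 were higher and 2 lower. *Bmp2* rose from 0.351 and 0.132 CPM to 0.977 and 0.842 CPM (log2 fold change 1.96 ± 0.42, edgeR adjusted p = 0.000545), a change counted on 4 to 25 reads. *Bmp7* rose by 1.05 ± 0.14 (edgeR adjusted p = 6.91e-07) and *Bmp8b* by 0.91 ± 0.10 (edgeR adjusted p = 2.42e-08). *Gdf3*, a ligand of the family highly expressed in pluripotent cells, fell from 113 and 104 CPM to 49.1 and 54.5 CPM (-1.06 ± 0.06, edgeR adjusted p = 2.38e-14). *Bmp7* was the ligand with the opposite line difference to *Bmp4*, at 3.24 and 3.17 CPM in untreated CreER and 45.3 CPM in untreated O4AID, a 14.1-fold higher level in O4AID, and it was 44.6 CPM there after 24 h of IAA.

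Of the 8 receptors and co-receptors 5 were higher and 1 was lower at 36 h. *Rgmb*, a BMP co-receptor, rose by 0.83 ± 0.11 (edgeR adjusted p = 6.48e-07). *Acvr1*, a type I receptor, rose by 0.66 ± 0.17 (edgeR adjusted p = 0.00273), a call lost without 36 h replicate 1 (0.106), and the co-receptor *Rgma* by 0.82 ± 0.26 (edgeR adjusted p = 0.0144), lost without 0 h replicate 2 (0.134), without 36 h replicate 2 (0.235) and by DESeq2 (0.0985). *Bmpr1b*, the type I receptor closest to *Bmpr1a*, was lower, at -0.98 ± 0.28 (edgeR adjusted p = 0.00721; 0.0683 without 36 h replicate 2, and 0.0708 by DESeq2). It had 1.41 and 1.39 CPM in untreated CreER and 0 reads in 4 of the 5 O4AID libraries, the untreated one among them, with 1 read at 6 h. It was at least 20.4-fold higher in untreated CreER at a floor of 3 reads in the O4AID library.

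Of the 4 SMAD transducers 1 was higher, and of the 6 tested extracellular modulators 2 were. The protease gene *Bmp1* rose by 0.98 ± 0.09 (edgeR adjusted p = 3.95e-10) and the antagonist gene *Nbl1* by 0.75 ± 0.23 (edgeR adjusted p = 0.0125), the latter lost without 0 h replicate 2 (0.0725), without 36 h replicate 2 (0.0552) and by DESeq2 (0.0903). BMP1 is a procollagen and chordin protease and not a BMP ligand. Of the 6 intracellular inhibitors 2 were higher and 1 was lower, *Skil*, a SMAD co-repressor, at -0.92 ± 0.05 (edgeR adjusted p = 1.61e-14). Of the 3 E protein genes 1 was higher and 0 were lower.

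Of the 6 tested further targets 4 were higher and none was lower at 36 h (19.4% of all genes higher, 17.2% lower). *Gata2* rose from 5.47 and 5.58 CPM to 16.2 and 19.4 CPM (1.69 ± 0.11, edgeR adjusted p = 1.72e-12), with no overlap between the pairs. *Dlx3* rose by 2.02 ± 0.17 (edgeR adjusted p = 1.22e-10), *Gata3* by 0.98 ± 0.18 (edgeR adjusted p = 8.23e-05) and *Id4* by 0.88 ± 0.20 (edgeR adjusted p = 0.000771). *Gata3* is also 1 of the 8 trophectoderm markers, and *Gata2* and *Dlx3* are known to be expressed in trophoblast.

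In O4AID 7 of the 39 genes of the list with enough reads were past 2-fold at 24 h, 4 higher and 3 lower, where 3.82% of all genes were past it higher and 2.96% lower. *Gata2* went from 0.888 CPM through 1.83, 1.64 and 1.74 to 7.05 CPM (39 to 323 reads), a log2 change of 2.09 (1.82 to 2.33), with the 24 h library apart from the rest as for *Id1*. *Msx1*, the relative of *Msx2*, reached 1.77 (1.51 to 2.00), whereas in CreER it was between 1.35 and 2.40 CPM throughout. *Id4* climbed through 3.99, 5.44, 8.16, 10.5 and 10.6 CPM, a change of 1.22 (1.01 to 1.43), and *Rgma* reached 1.57 (1.41 to 1.72). The lower genes were *Inhbb*, an activin subunit, at -2.76 (-2.97 to -2.52), *Gdf3* at -1.76 (-1.86 to -1.66) and the activin-binding antagonist *Fst* at -1.66 (-1.91 to -1.38). The list's median change was 0.06, beside -0.02 over all genes. By interval 18 of its 39 genes lay above 0, 11 below 0 and 10 across it. The share of all genes with such intervals was not computed, so these counts are not read as a tilt of the list.

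**Figure D5:**
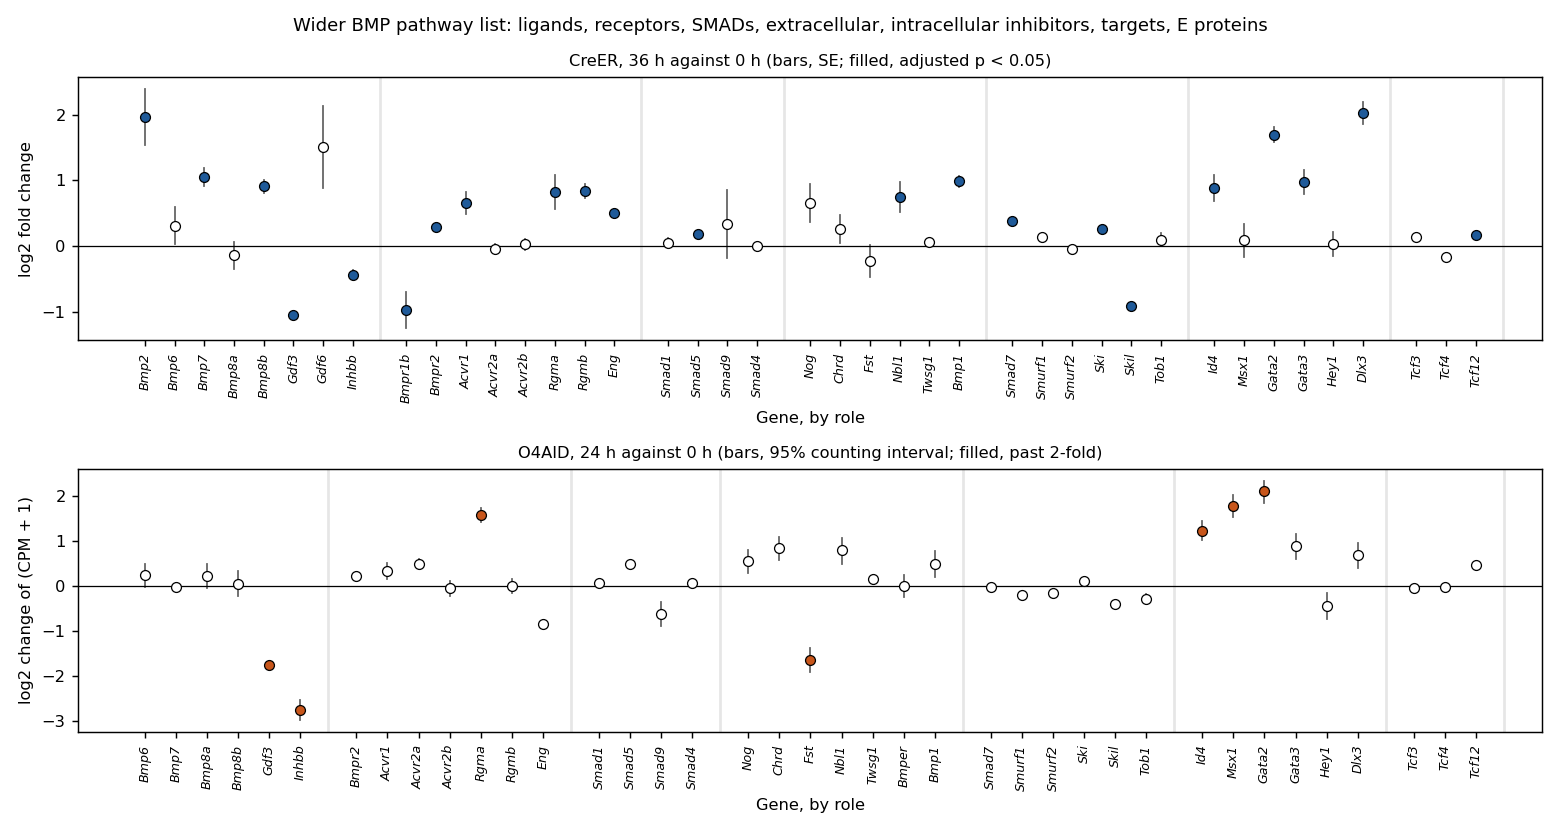
Change of the genes of the wider list by role, above as log2 fold change at 36 h of 4-OHT in CreER (± SE, filled at an edgeR adjusted p under 0.05) and below as log2 change of (CPM + 1) at 24 h of IAA in O4AID (95% counting interval, filled past 2-fold). In the group of targets, *Id4* and *Gata2* are filled in both panels, *Gata3* and *Dlx3* in the upper and *Msx1* in the lower.

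The genes whose profile over the 15 libraries was most like that of *Id1*, after centring each system on its own mean, were *Parp14* (Pearson r = 0.988), *Ankrd6* (0.966) and *Gja1* (0.958), among 12777 genes with a mean of at least 1 CPM in each system. For *Bmp4* they were *Eogt* (0.841), *Cercam* (0.836) and *Mta1* (0.817). *Bmp4* itself was under that limit in O4AID, at 0.256 to 0.720 CPM (10 to 33 reads), so its profile there carries much counting error. The libraries of a time course come from 1 line and are not independent points, and for *Id1* the 24 h O4AID library is far from the other 4 of its system, so the values are a description.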

How the data were processed

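RNA-seq read counts per gene were deposited for each library. Per the labels and the study's methods, the authors trimmed reads with Trim Galore 0.1.4, aligned them with TopHat2 2.1.0 to GRCm38/mm10 and counted them with featureCounts 1.5.1 against Ensembl annotation; strand and multimapping settings are not given in the sources used here. The files hold 92 spike-in entries with 0 reads. Entries without a gene symbol took 0.0412% of reads.

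The members and lists were chosen with earlier results of these data known. CreER counts were fitted in edgeR 4.0.16 (R 4.3.3; TMM, filterByExpr, robust quasi-likelihood F test, prior count 0.125, 10 libraries in 1 fit) and called at a Benjamini-Hochberg adjusted p under 0.05; the study itself merged replicates and used a simulation-based test that was not run here. For O4AID, log2 ratios of (TMM CPM + 1) carry 95% Wilson intervals of each share, and CPM ratios exact binomial ones. Both cover counting error only. Between the CreER replicates of a time, the chi-square per degree of freedom over genes was 3.27 to 7.76. Counting error alone would give about 1. The spread between CreER libraries was thus wider than counting error, and that between O4AID libraries could not be measured. The 2-fold limit was applied to genes with a mean of at least 10 counts. Genes of the wider list were named where a call in CreER at 36 h came with a log2 change of 0.5 or more in size, or where O4AID at 24 h was past 2-fold. Alternatives were RLE and total-count scaling, no filter or at least 10 counts in every library, DESeq2 1.42.0, 4 libraries per fit, a replicate block, leaving out each library, pseudocounts of 0.1 and 5 CPM and the 1.5 h reference. CPM ratios were added after the data were seen. The code was tested on simulated counts. The deposited normalized matrix was not used.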

Additional observations from a re-analysis of the deposited data

Results flagged for a closer look

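The values of *Id1* at 24 h had opposite signs in the O4AID and CreER systems, and the CreER value did not pass the test. The log2 change of (CPM + 1) was 1.43 in the single O4AID library, and the fitted log2 fold change in CreER was -0.12 (edgeR adjusted p = 0.118), with both CreER replicates below both untreated ones. The difference between the systems was not tested, and line, agent and route of OCT4 loss cannot be told apart.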

How the results depend on the processing

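The calls of *Smad6* from 18 h, *Msx2* from 24 h, and *Id1* and *Id2* at 36 h kept their direction and their side of the threshold in each alternative run; the calls of *Bmp4* and *Msx2* at 18 h, *Id2* at 24 h, and *Bmpr1a* and *Bambi* at 36 h did not, and the causes were not tested. Counts of members called at 18 h were 1 in place of 3 under total-count scaling, with only the 4 libraries compared, and by DESeq2. By DESeq2 the genes called over the whole table were 956 in place of 1616 at 18 h, 2523 in place of 4089 at 24 h and 1606 in place of 2785 from 24 to 36 h, and those of the wider list 8 in place of 14 at 24 h and 7 in place of 11 from 24 to 36 h. With no filter 222 genes in place of 75 were called at 12 h. Leaving out 1 library gave 8 to 218 genes at 12 h, 582 to 2006 at 18 h, 2343 to 3703 at 24 h and 1491 to 2194 from 24 to 36 h, 1 to 3 members at 18 h and 3 to 5 from 24 to 36 h, and 3 to 9, 8 to 13 and 7 to 10 genes of the wider list at 18 h, 24 h and from 24 to 36 h; each such fit compares a lone library, assumed to vary like the others. Log2 fold changes near 0 changed sign. That of *Bmpr1a* was -0.032 at 12 h and -0.0045 from 24 to 36 h under total-count scaling. Over fits leaving out 1 library at 12 h it was -0.020 to 0.033 for *Bmpr1a*, -0.084 to 0.025 for *Bambi*, -0.184 to 0.062 for *Id2* and -0.103 to 0.053 for *Msx2*, and at later times -0.043 to 0.0033 for *Id1* at 18 h, -0.082 to 0.026 for *Bambi* at 24 h and -0.17 to 0.0063 for *Id3* from 24 to 36 h.

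In O4AID a pseudocount of 0.1 CPM put 1 member past 2-fold in the 1.5 h library, 1 in the 6 h library, 2 in the 10 h library and 3 in the 24 h library, *Id3* among them as lower at 10 and 24 h, and 5 CPM put 0 there at 10 h and 0 at 24 h. With the 1.5 h library as reference 0 members were past 2-fold at 10 h and 1 at 24 h. Depth limits *Bmp4*, *Id2* and *Id3* in O4AID, counted on 5 to 67 reads.

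With the replicate number as a block, 89, 1677, 4139 and 6999 genes were called at 12, 18, 24 and 36 h and 2813 from 24 to 36 h, and no call of a member changed. No shared deviation of same-numbered libraries was seen, with correlations of -0.016 to 0.052 over the 10 pairs of times. This cannot show whether they were matched in culture or handling, which is not stated.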

Other observations

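Of the 3 E protein genes, whose products ID proteins bind, *Tcf4* and *Tcf12* also differed between the untreated lines. The group was picked out here after its values were seen. *Tcf4* had 31.8 and 31.5 CPM in CreER and 80.1 CPM in O4AID, and *Tcf12* had 44.3 and 43.1 CPM against 83.9 CPM. *Tcf3* was nearer equal, at 118 and 103 CPM against 122 CPM. Over all times the CreER libraries lay below the O4AID libraries for *Tcf4* and *Tcf12*, as they did for 33.6% of genes, and overlapped them for *Tcf3*. These lines were compared with 1 O4AID library and no test.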
